A study of Mus musculus with 8 samples.

Results

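The genes described here were 40 genes of glycolysis and of the response to low oxygen in mouse kidney tubuloids, 3D cultures grown in Matrigel from primary renal tubule fragments. They were chosen by name from textbook membership in the glycolytic pathway and the hypoxia-inducible factor (HIF) pathway. The choice was made with earlier results of these data known. All 40 were listed in the transcript tables and passed the filter on low counts, out of 24063 genes in all, of which 16557 were tested. The study asked what a pulse of glial cell line-derived neurotrophic factor (GDNF), the ligand of the Ret receptor in the ureteric bud, does to gene expression in these cultures. RNA-Seq was carried out on 4 control cultures (numbered 3, 7, 14 and 21) and 4 GDNF-pulsed cultures (6, 12, 17 and 22), and values by culture are given in that order throughout. The GDNF cultures received GDNF for 24 h after plating and were then kept in the same growth factor medium as the controls, and all were harvested on culture day 7.

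Both groups came from kidneys of mice at postnatal days 7 to 10 with the genotype Pkd2 fl/fl Pax8rtTA TetOCre mTmG. These mice carry loxP-flanked Pkd2, the gene for polycystin 2, and a Cre that doxycycline can induce where the Pax8 promoter, active in the renal tubule epithelium, drives the transactivator, together with a membrane fluorescence reporter. No inducer is named in the labels of either group. The labels do not tie a culture to an animal, so the tests measure the spread between cultures, which may be technical in part. Summed counts ranged from 72991721 to 97490625 per culture, and the lowest count of any of the 40 genes in any culture was 123. Control culture 3 stood apart in composition. Its trimmed mean of M-values (TMM) scaling factor was 0.790, against 0.963 to 0.982 in the other controls and 1.07 to 1.11 in the GDNF cultures, and transcripts up to about 1398 bp held 26.2% of its counts, against 18.9% to 21.5% in the other controls and 15.8% to 19.3% in the GDNF cultures.

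Glycolysis splits glucose to pyruvate in the cytosol and yields ATP without oxygen. Lactate dehydrogenase turns the pyruvate to lactate, while the pyruvate dehydrogenase complex passes it to the mitochondria. HIF pairs an oxygen-sensitive alpha subunit with ARNT. With oxygen present, prolyl hydroxylases (EGLN proteins) mark the alpha subunit for destruction by the ubiquitin ligase that VHL belongs to, and in low oxygen the subunit accumulates and activates genes of glycolysis, vessel growth, mitochondrial removal and collagen maturation. In the kidney, proximal tubules depend largely on fatty acid oxidation, whereas the distal nephron and collecting duct, which reach into the poorly oxygenated medulla, use more glycolysis.

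None of the 40 genes passed the main test between GDNF and control cultures. The 11 that DESeq2, the tool of the study, called were lower after GDNF and comprised 6 glycolytic enzymes, Ldha, Pdk3 and the mitochondrial proteins Bnip3, Bnip3l and Higd1a. When edgeR's quasi-likelihood p-values were adjusted by the Benjamini-Hochberg method over all genes, 0 of the 40 genes were called at an adjusted p of 0.05, as were 0.0% of all genes tested, and the smallest adjusted p among the 40 was 0.167. At an unadjusted p of 0.05, 16 of the 40 were lower and 0 were higher after GDNF, against 12.9% of all genes lower and 9.25% higher. DESeq2, which gave an adjusted p to 34 of the 40, called 11 lower (Aldoa, Tpi1, Gapdh, Pgk1, Pgam1, Eno1, Ldha, Pdk3, Bnip3, Bnip3l and Higd1a) and 0 higher, against 12.4% of the genes with an adjusted p lower and 2.3% higher. The median log2 fold change of the 40 genes was -0.54, against 0.03 over all genes tested. With counts scaled to library size only, these medians were -0.30 and 0.25, so that the distance between them was -0.55 in place of -0.57. In that scaling 850 genes were lower and 3299 higher at an unadjusted p of 0.05 over all genes, where TMM gave 2134 and 1531. In whole cultures such as these, fewer cells of a type and less RNA per cell cannot be told apart.

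**Figure D1:**
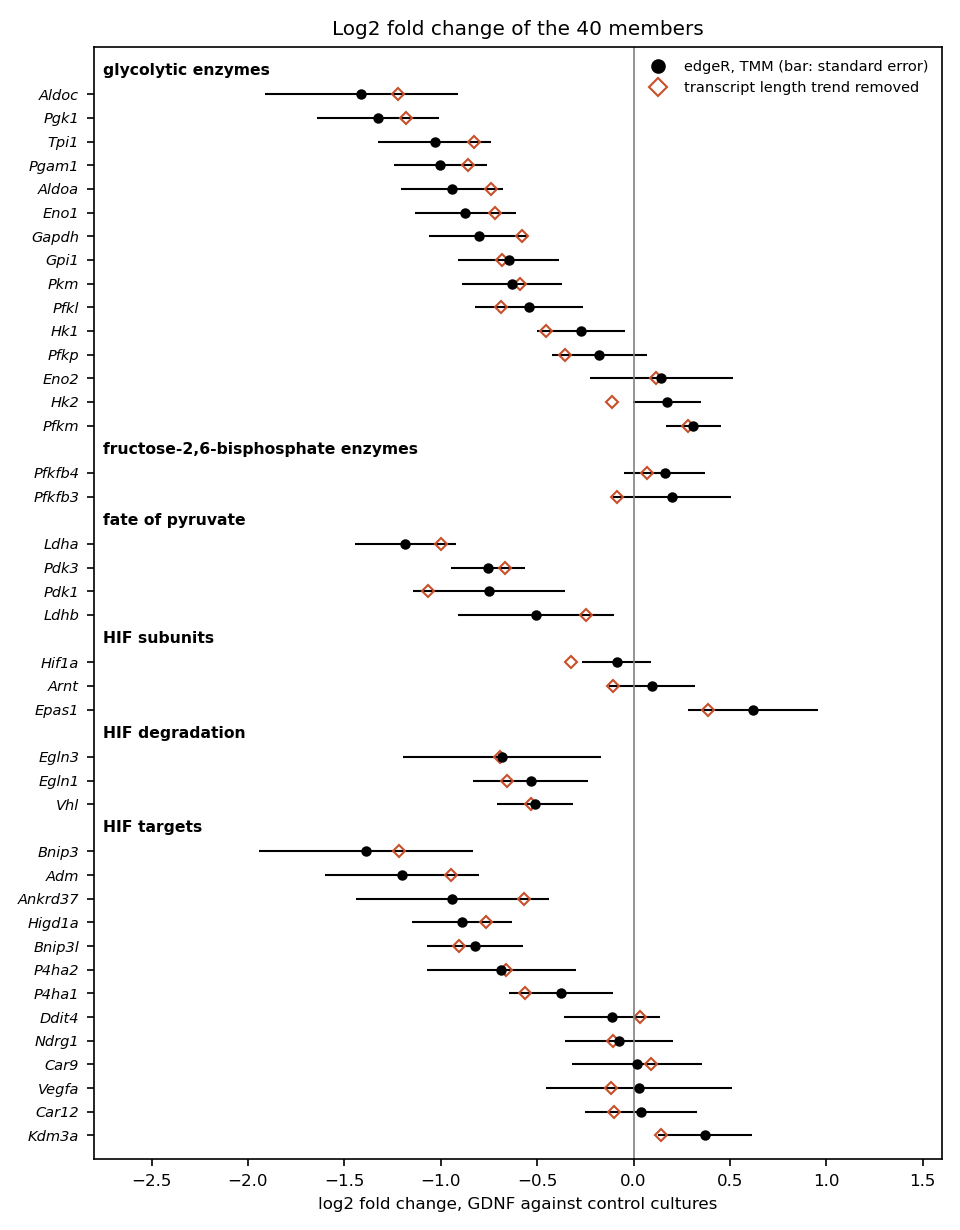
Log2 fold change (x axis, GDNF against control cultures, n = 4 each) of each of the 40 genes (y axis), grouped by role and ordered by value. Black points with bars are edgeR estimates with their standard errors, and open diamonds are estimates after the trend with transcript length was removed. The estimates range from -1.41 for Aldoc to 0.62 for Epas1, and 11 genes near 0 change sign under at least 1 alternative.

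In counts-per-million values with TMM normalization (CPM), all 4 GDNF cultures lay below all 4 controls for 9 of the 40 genes (Aldoa, Tpi1, Gapdh, Pgk1, Pgam1, Eno1, Ldha, Pdk3 and Adm) and above them for 0, against 6.26% and 6.99% of all genes tested. This count rested on the scaling between cultures. It was 3 lower and 1 higher with library size only, where 2.1% of all genes were lower and 14.5% higher without overlap. In transcripts-per-million values (TPM), a length-corrected scale, it was 1 lower (Ldha) and 2 higher (Hk2 and Pfkm), against 0.61% and 20.6% of all genes. The fitted fold changes depended on it too. With library size only, 25 of the 40 were below 0 in place of 29, and 12 were lower and 1 higher at an unadjusted p of 0.05 in place of 16 and 0, against 5.13% of all genes lower and 19.9% higher.

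Glycolytic enzymes were the largest group, with 15 genes. Of these, 9 were lower and 0 higher at an unadjusted p of 0.05, against 12.9% and 9.25% of all genes tested. DESeq2 called 6 lower of the 14 with an adjusted p, against 12.4% of all genes with one. The median log2 fold change of the 15 genes was -0.65. By length-corrected level, the most abundant over all cultures were Gapdh (946 TPM), Eno1 (835 TPM), Pkm (750 TPM) and Aldoa (625 TPM), and the least abundant was Aldoc (6.88 TPM).

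In the steps up to phosphofructokinase, DESeq2 called 0 of 6 genes, and Gpi1 had an unadjusted edgeR p under 0.05. Hexokinases trap glucose as glucose 6-phosphate. Hk1 read 179, 116, 87.5 and 163 CPM in the controls and 97.3, 137, 116 and 101 CPM after GDNF, and Hk2 read 74.6, 77.1, 50.4 and 74.0 CPM against 79.8, 92.6, 64.3 and 74.6 CPM. The groups overlapped for both, with edgeR adjusted p of 0.492 and 0.581. Gpi1, which turns glucose 6-phosphate to fructose 6-phosphate, read 466, 275, 332 and 266 CPM in the controls and 150, 306, 231 and 169 CPM after GDNF. Its log2 fold change was -0.65 (SE 0.26, edgeR adjusted p = 0.197), and GDNF culture 12 lay above controls 7 and 21. Phosphofructokinase commits the sugar to glycolysis. Its liver form Pfkl read 247, 162, 156 and 165 CPM against 68.2, 182, 136 and 115 CPM, and its platelet form Pfkp read 126, 118, 98.6 and 102 CPM against 61.6, 153, 89.8 and 88.0 CPM. For both, culture 6 was the lowest of all 8 and the groups overlapped. The muscle form Pfkm had the highest estimate of the 15 enzymes (log2 fold change 0.31, SE 0.14, edgeR adjusted p = 0.237). Reads of Pfkm, Pfkp and Hk1 may include those of overlapping genes (Senp1, Pitrm1 and the antisense Hk1os), since the library kit does not mark strand. The same limit holds for Tpi1 (overlapping Spsb2), Ankrd37 (Ufsp2) and Car9 (Arhgef39 and Tpm2).

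From aldolase to enolase, 6 genes (Aldoa, Tpi1, Gapdh, Pgk1, Pgam1 and Eno1) had every GDNF culture below every control in CPM, and DESeq2 called these 6. Aldolase A (Aldoa), which splits the 6-carbon sugar, read 3517, 1620, 2178 and 2093 CPM in the controls and 910, 1567, 1339 and 1084 CPM in the GDNF cultures. The means were 2352 ± 814 and 1225 ± 288 CPM (SD, n = 4 each), 1.92-fold lower after GDNF (log2 fold change -0.94, SE 0.26, edgeR adjusted p = 0.167, DESeq2 adjusted p = 0.0214), with culture 12 just under the lowest control. Aldoc, the minor brain form, read 22.7, 8.39, 5.998 and 6.77 CPM against 4.82, 6.45, 3.34 and 1.85 CPM, with a log2 fold change of -1.41 (SE 0.50, edgeR adjusted p = 0.171). Control culture 3 lay far above the other controls for this gene, and without it the log2 fold change of Aldoc was -0.78.

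Triose phosphate isomerase (Tpi1), which interconverts the triose phosphates, read 779, 347, 372 and 427 CPM in the controls and 175, 325, 246 and 195 CPM after GDNF. Its log2 fold change was -1.03 (SE 0.29, edgeR adjusted p = 0.167, DESeq2 adjusted p = 0.0220). Gapdh, the dehydrogenase often used as a reference gene, read 2997, 1463, 1420 and 2312 CPM against 1131, 1382, 1202 and 977 CPM, and its log2 fold change was -0.80 (SE 0.26, edgeR adjusted p = 0.167, DESeq2 adjusted p = 0.0281). The gap between the groups was narrow for both, culture 12 lying just below the lowest control. Phosphoglycerate kinase (Pgk1), the first step that makes ATP, read 389, 208, 291 and 162 CPM in the controls and 66.6, 147, 121 and 84.6 CPM after GDNF. Its means were 263 ± 99.7 and 105 ± 36.3 CPM (SD, n = 4 each), 2.50-fold lower, with a log2 fold change of -1.32 (SE 0.32, edgeR adjusted p = 0.167, DESeq2 adjusted p = 0.0127).

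Phosphoglycerate mutase (Pgam1) read 227, 119, 136 and 135 CPM in the controls and 56.1, 98.5, 83.5 and 70.04 CPM after GDNF, with a log2 fold change of -1.002 (SE 0.24, edgeR adjusted p = 0.167, DESeq2 adjusted p = 0.0183). Enolase 1 (Eno1) read 1716, 843, 810 and 1256 CPM against 548, 806, 656 and 519 CPM, with a log2 fold change of -0.87 (SE 0.26, edgeR adjusted p = 0.167, DESeq2 adjusted p = 0.0257). Reads of Eno1 could not be separated from its near-identical copy Eno1b, whose count was 100.3% to 100.5% of that of Eno1 in every culture. The neuronal enolase Eno2 read 10.2, 18.3, 42.6 and 24.9 CPM against 19.4, 24.1, 31.3 and 31.4 CPM, and the groups overlapped (edgeR adjusted p = 0.843). Pyruvate kinase (Pkm), the last step, read 3677, 1819, 1887 and 3094 CPM in the controls and 1370, 2071, 1768 and 1561 CPM after GDNF. Its log2 fold change was -0.63 (SE 0.26, edgeR adjusted p = 0.200, DESeq2 adjusted p = 0.0677), and culture 12 lay above controls 7 and 14. Gapdh, Pgam1, Ldha and other genes of this group have many processed pseudogenes, and how shared reads were assigned is not given in the sources used here.

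**Figure D2:**
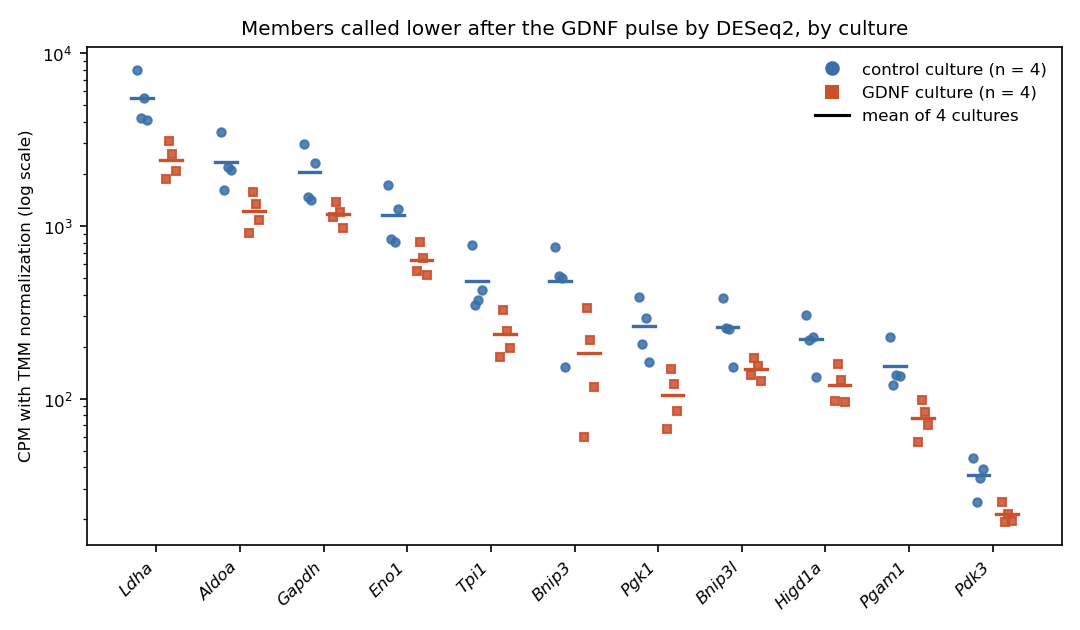
CPM with TMM normalization (y axis, log scale) of the 11 genes that DESeq2 called lower after the GDNF pulse (x axis), by culture. Circles are the 4 control cultures, squares the 4 GDNF cultures and lines the group means, and the groups do not overlap for 8 of the 11 genes, the exceptions being Bnip3, Bnip3l and Higd1a.

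The 2 bifunctional enzymes that set fructose 2,6-bisphosphate, the activator of phosphofructokinase, gave no call. Pfkfb3 read 120, 153, 101 and 82.8 CPM in the controls and 77.1, 219, 115 and 113 CPM in the GDNF cultures (edgeR adjusted p = 0.726), and Pfkfb4 lay between 6.11 and 10.6 CPM in all 8 cultures (edgeR adjusted p = 0.672).

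Lactate dehydrogenase A (Ldha), which turns pyruvate to lactate, was the most abundant of the 40 genes (1326 TPM over all cultures) and the one with the smallest p of the set. It read 8027, 4199, 5535 and 4121 CPM in the controls and 1877, 3081, 2596 and 2079 CPM after GDNF. The means were 5470 ± 1824 and 2408 ± 541 CPM (SD, n = 4 each), 2.27-fold lower, with a log2 fold change of -1.18 (SE 0.26, edgeR adjusted p = 0.167, DESeq2 adjusted p = 0.00497). Every GDNF culture lay below every control in CPM with either scaling and in TPM, where the controls read 1935, 1391, 1837 and 1471 and the GDNF cultures 724, 1272, 1072 and 907. Ldhb, the subunit that favours the return of lactate to pyruvate, read 607, 347, 181 and 236 CPM against 392, 252, 149 and 174 CPM, and the groups overlapped (edgeR adjusted p = 0.472). Pyruvate dehydrogenase kinases switch off the entry of pyruvate into the mitochondria. Pdk3 read 45.4, 25.1, 34.7 and 38.9 CPM in the controls and 25.1, 19.2, 21.5 and 19.6 CPM after GDNF (log2 fold change -0.75, SE 0.19, edgeR adjusted p = 0.167, DESeq2 adjusted p = 0.0214), with control 7 and GDNF culture 6 nearly level. Pdk1 read 103, 104, 87.8 and 42.1 CPM against 25.2, 90.8, 42.2 and 42.1 CPM. Its estimate was of the same size as that of Pdk3 (log2 fold change -0.75) but its error was larger (SE 0.39, edgeR adjusted p = 0.282).

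The RNA of the HIF subunits themselves gave no call. Hif1a, the broadly expressed alpha subunit, read 131, 129, 174 and 161 CPM in the controls and 106, 135, 171 and 148 CPM after GDNF (edgeR adjusted p = 0.794). Epas1, which encodes HIF-2 alpha and is known chiefly from endothelial and interstitial cells of the kidney, was the scarcest of the 40 genes (1.40 TPM) and read 2.05, 4.53, 3.68 and 2.68 CPM against 5.38, 2.84, 6.85 and 4.86 CPM. Its log2 fold change of 0.62 (SE 0.34) was the highest of the set, but the groups overlapped (edgeR adjusted p = 0.297). Arnt, the common partner, lay between 39.3 and 73.5 CPM in all cultures (edgeR adjusted p = 0.823). HIF alpha is controlled largely through the stability of the protein, which RNA-Seq does not measure.

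All 3 genes of HIF degradation had lower means after GDNF, and 1 of them, Vhl, had an unadjusted p under 0.05. Over all 16557 genes tested, 7866 had a log2 fold change below 0 and 12.9% were lower at that p. Vhl read 52.9, 40.1, 58.4 and 33.0 CPM in the controls and 26.6, 36.8, 34.2 and 31.9 CPM after GDNF (log2 fold change -0.51, SE 0.20, edgeR adjusted p = 0.188, DESeq2 adjusted p = 0.0801). The prolyl hydroxylase Egln3, itself a HIF target, read 95.8, 73.2, 44.0 and 18.3 CPM against 24.4, 71.1, 21.9 and 26.5 CPM. Control 21 was the lowest of all cultures for Egln3 and GDNF culture 12 was among the highest, and the edgeR adjusted p was 0.445. Egln1, the main oxygen sensor of the pathway, had a log2 fold change of -0.53 (SE 0.30, edgeR adjusted p = 0.311).

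Among the 13 targets of HIF, 4 were lower and 0 higher at an unadjusted p of 0.05, against 12.9% and 9.25% of all genes tested. DESeq2 called 3 lower (Bnip3, Bnip3l and Higd1a) of the 10 with an adjusted p, against 12.4% of all genes with one. Bnip3 and Bnip3l are receptors that mark mitochondria for removal by autophagy. Bnip3 read 752, 510, 497 and 152 CPM in the controls and 59.9, 335, 219 and 116 CPM after GDNF. Its means of 478 ± 247 and 183 ± 121 CPM (SD, n = 4 each) differed 2.62-fold (log2 fold change -1.39, SE 0.56, edgeR adjusted p = 0.196, DESeq2 adjusted p = 0.0387), yet control 21 lay below GDNF cultures 12 and 17. Bnip3l read 383, 255, 254 and 152 CPM against 137, 172, 154 and 126 CPM (log2 fold change -0.82, SE 0.25, edgeR adjusted p = 0.167, DESeq2 adjusted p = 0.0272). Higd1a, a small mitochondrial protein induced by hypoxia, read 305, 218, 228 and 133 CPM against 96.9, 158, 128 and 95.0 CPM (log2 fold change -0.89, SE 0.26, edgeR adjusted p = 0.167, DESeq2 adjusted p = 0.0253). For these 3 genes control 21 was the lowest control and overlapped the GDNF cultures.

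Adm, which encodes the vasodilator peptide adrenomedullin, read 22.6, 12.97, 15.9 and 16.5 CPM in the controls and 2.61, 12.1, 6.01 and 8.88 CPM after GDNF, without overlap. Its log2 fold change was -1.20 (SE 0.40, edgeR adjusted p = 0.167), and DESeq2 gave it no adjusted p. The other targets gave no call under either tool. Vegfa, the vascular growth factor, was added for its place as the best known target after its values were seen. It read 1004, 1723, 3633 and 1381 CPM in the controls and 709, 2676, 2929 and 1574 CPM after GDNF, with means of 1935 ± 1170 and 1972 ± 1027 CPM (SD, n = 4 each) and an edgeR adjusted p of 0.981. The spread within each group was thus far larger than the distance between the means. The prolyl 4-hydroxylase subunits P4ha1 and P4ha2, which mature collagen, had log2 fold changes of -0.38 and -0.69 (SE 0.27 and 0.39), and the ankyrin repeat gene Ankrd37 had -0.94 (SE 0.50). The histone demethylase Kdm3a had 0.37 (SE 0.24). Single cultures decided the size of these 4 values. Leaving out 1 culture gave -0.60 (without GDNF 12) to -0.20 (without GDNF 6) for P4ha1 and -1.03 (without GDNF 12) to -0.40 (without control 14) for P4ha2. For Ankrd37 it gave -1.54 (without GDNF 12) to -0.61 (without control 3), and for Kdm3a 0.21 (without GDNF 12) to 0.57 (without control 7). The stress genes Ddit4 and Ndrg1 and the carbonic anhydrases Car9 and Car12, which hydrate carbon dioxide, lay between -0.11 and 0.04 on the log2 scale, with signs that changed between settings. Car9 and Car12 were near the low end of the set at 2.14 and 2.12 TPM.

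The start regions of these genes were read for the short core that HIF binds. RefSeq windows (assembly GRCm38.p6) of 300 bases, from 250 before to 50 after the start of transcription, were found for 37 of the 40 genes, and not for Epas1, Bnip3l and Ndrg1. ACGTG or its reverse complement CACGT stood in 26 of their 53 windows (49.1%), against 19.6% of 32851 windows of all genes, and the other form of the core, GCGTG or CACGC, in 56.6% against 32.4%. By gene, 23 of the 37 had ACGTG on either strand in at least 1 window (62.2%, against 21.8% of 27025 genes). These 40 genes were picked in part as known HIF targets, so the higher share describes the choice. Of the genes called by DESeq2 that had a window 8 of 10 held ACGTG or CACGT, and of those not called 15 of 27. The windows below are shown on the gene's strand, with ACGTG and CACGT in capitals. They are of the 3 genes with the lowest estimates among those that DESeq2 called and that had a window, and of Kdm3a. Kdm3a had the highest estimate among genes with a window, and its 3 windows hold neither ACGTG nor CACGT. These 4 do not stand for the rest. The called genes Tpi1 and Eno1 held neither ACGTG nor CACGT. Of the other genes with positive estimates and a window, Pfkm, Pfkfb3, Hk2, Vegfa and Car9 held ACGTG or CACGT. Pfkfb4, Eno2, Arnt and Car12 did not. Bnip3 is at chr7:138909457-138909756 (minus strand) and Pgk1 at chrX:106186850-106187149 (plus strand). Ldha is at chr7:46845554-46845853 (plus strand, the more upstream of its 2 windows) and Kdm3a at chr6:71632868-71633167 (minus strand, the most upstream of its 3 windows). The RefSeq spans of Ldha and Kdm3a begin further upstream than the starts of these windows, at 46842274 and 71632990. A CACGTG holds ACGTG and CACGT in overlap and counts as 2 matches.
Bnip3: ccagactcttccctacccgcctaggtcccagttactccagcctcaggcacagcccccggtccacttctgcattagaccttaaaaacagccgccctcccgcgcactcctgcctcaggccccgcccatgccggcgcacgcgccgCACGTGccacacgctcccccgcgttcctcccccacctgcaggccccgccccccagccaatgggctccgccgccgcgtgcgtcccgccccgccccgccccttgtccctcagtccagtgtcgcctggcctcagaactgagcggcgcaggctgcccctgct
Pgk1: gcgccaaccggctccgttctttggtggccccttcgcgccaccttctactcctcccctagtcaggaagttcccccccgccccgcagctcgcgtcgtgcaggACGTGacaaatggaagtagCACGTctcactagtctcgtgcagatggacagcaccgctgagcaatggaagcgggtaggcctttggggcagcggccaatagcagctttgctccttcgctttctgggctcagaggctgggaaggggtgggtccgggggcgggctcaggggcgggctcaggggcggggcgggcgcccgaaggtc
Ldha: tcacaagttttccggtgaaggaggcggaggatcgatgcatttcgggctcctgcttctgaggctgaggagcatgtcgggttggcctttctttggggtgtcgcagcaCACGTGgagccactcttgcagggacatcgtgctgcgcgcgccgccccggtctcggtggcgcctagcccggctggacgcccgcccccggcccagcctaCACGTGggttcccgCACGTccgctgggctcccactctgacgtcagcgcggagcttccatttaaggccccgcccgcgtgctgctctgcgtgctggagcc
Kdm3a: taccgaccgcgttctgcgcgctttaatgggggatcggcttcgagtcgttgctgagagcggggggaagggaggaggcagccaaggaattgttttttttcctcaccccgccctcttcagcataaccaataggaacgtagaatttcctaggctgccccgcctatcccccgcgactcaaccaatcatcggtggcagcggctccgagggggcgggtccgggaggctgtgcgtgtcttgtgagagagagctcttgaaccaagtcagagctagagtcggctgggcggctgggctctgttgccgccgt
By this count the window of Ldha held 5 matches, those of Bnip3 and Pgk1 held 2 each, and that of Kdm3a held 0. The other form of the core, GCGTG or CACGC, left in lower case, occurred 3 times in the window of Bnip3, 0 times in that of Pgk1, 2 times in that of Ldha and 1 time in that of Kdm3a. A match is a run of letters and does not show that HIF was bound.

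**Figure D3:**
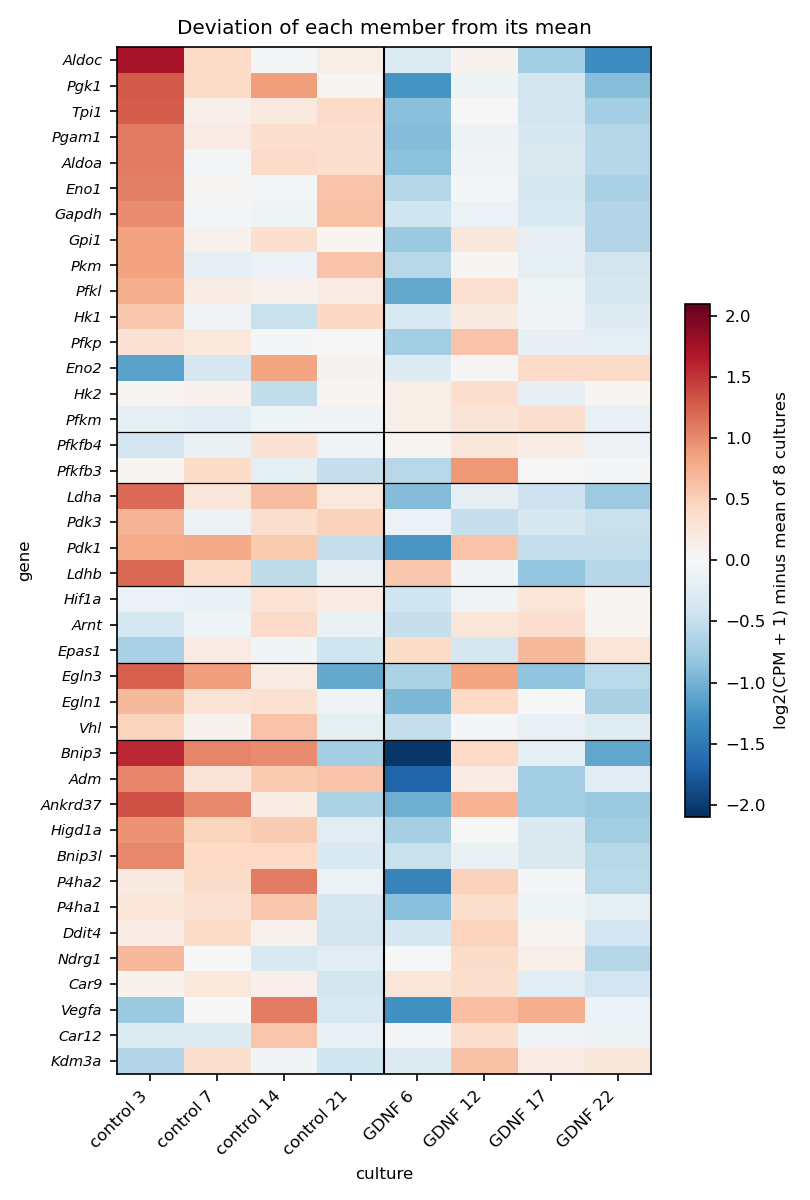
Deviation of log2(CPM + 1) from its mean over the 8 cultures (colour) for each of the 40 genes (y axis, grouped by role as in the plot of fold changes) in each culture (x axis, controls left of the line). Control 3 is the highest culture for 22 genes, GDNF 6 the lowest for 21, and GDNF 12 the highest GDNF culture for 32.

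Single cultures moved these counts. Control 3 was the highest of the 8 cultures for 22 of the 40 genes and GDNF culture 6 the lowest for 21. Within its own group, GDNF culture 12 was the highest for 32 genes and control 21 the lowest for 16. The same counts over all genes are not given here, so these cannot be read as particular to the 40 genes. Without control 3, the count lower at an unadjusted p of 0.05 was 11 and the number called by DESeq2 was 6, and the median log2 fold change of the 40 genes was -0.38. In that fit 8.18% of all genes were lower at the unadjusted p, and DESeq2 called 554 genes in all. Without GDNF culture 12, the first count was 24, the median was -0.72 and DESeq2 called 4, and without GDNF culture 22 DESeq2 called 0. In the latter fits DESeq2 called 19 and 3 genes in all, where it called 1346 with all cultures. Without any other culture it called 9 to 14 of the 40. The fold changes of 14 of the 40 genes kept their sign but moved by over 1.5 times when a single culture was left out. The 11 that DESeq2 called were not among these 14, but they had been picked from the same cultures for changes large beside their spread.

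The summed TPM of the 15 glycolytic enzymes was 5426, 3694, 3998 and 5593 in the controls and 2769, 4530, 3763 and 3256 in the GDNF cultures, so that the groups overlapped on this scale. Controls 3 and 21, the highest for this sum, were also the highest for the summed TPM of 6 tubule epithelium markers (Pax8, Epcam, Cdh1, Krt8, Krt18 and Cdh16). The marker sum was 348 to 3145 in the controls and 869 to 1245 after GDNF, with Krt8 and Krt18 the largest terms. By single marker, GDNF 6 was the highest culture for Pax8, Epcam and Cdh16 (110, 199 and 120 TPM). For Cdh1, control 21 was the highest (57.5 TPM), but control 3 (27.6 TPM) lay below GDNF 6, 12 and 22. For the 6 stromal markers the sum was 87.1 to 824 TPM in the controls and 110 to 641 TPM after GDNF, with Col3a1 the largest term. Control 3 and GDNF 6 were the lowest cultures for Vegfa (40.5 and 44.6 TPM) and also for Col3a1 (39.997 and 44.1 TPM), and control 14 and GDNF 17 and 12 were the highest for both. Of the other stromal markers, Col1a1 had the same lowest and highest cultures. Pdgfra, Pdgfrb and Dcn had the same lowest but not the same highest cultures, Dcn reading 9.45 TPM in GDNF 12 and 43.2 TPM in control 21. For Lum, GDNF 22 was the lowest (9.53 TPM), and GDNF 12 and 17 (12.7 and 12.5 TPM) lay below controls 7 and 21 (17.1 and 19.0 TPM). None of the 6 markers of either list was at 0 in a culture. The part of the epithelial or stromal share in the results for these genes was not tested. Of 7 proximal tubule markers, 6 were under 1 TPM in every culture, Slc5a2 being the exception, and of the 5 collecting duct markers Aqp2 (0 to 0.356 TPM) and Aqp3 (0.215 to 1.37 TPM) were low throughout, whereas Avpr2 read 0.611 to 4.43 TPM, Fxyd4 4.95 to 69.3 TPM and Gata3 6.48 to 27.4 TPM. Summed markers of endothelium (14.2 to 55.6 TPM), immune cells (4.65 to 40.8 TPM) and red blood cells (0.422 to 1.79 TPM) were low.

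The cultures also differed in kind. Xist RNA prevailed in controls 3 and 7 and in GDNF cultures 6 and 12, and Y-linked RNA in the other 4, while control 3 and GDNF culture 6 held some of both. Of the 40 genes, 28 had lower means after GDNF within each kind. Over the 40 genes, the median difference of log2(CPM + 1) means, GDNF minus control, was -0.61 in the Xist cultures and -0.38 in the Y-linked ones (2 cultures against 2 in each). The same count and medians over all genes are not given here, so these values cannot be read as particular to the 40 genes. The 16 genes with an unadjusted p under 0.05 were among the 28, having been picked for low values over the same cultures, and of the other 24 genes 12 were.

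Transcript length moved with the outcome over the whole transcriptome. In 10 bins of equal size by length, the median log2 fold change of all genes was -0.27 in the shortest bin (median length 602 bp), -0.35 in the next (1198 bp) and from there went up to 0.38 in the longest (7396 bp). Split after the values were seen, the 16 members up to 2000 bp long had a median log2 fold change of -0.94 and held 12 of the 16 with an unadjusted p under 0.05, and the 24 longer members had -0.13 and held 4. The bin around 1632 bp, whose median over all genes was -0.22, held 10 members, 9 of them with an unadjusted p under 0.05. The shares of all genes past that p are not given here by length, so these counts cannot be read as particular to these genes. When a smooth trend with length was removed from each culture, the median log2 fold change of the 40 genes was -0.57, against -0.04 over all genes tested. Of the 40 genes, 33 were below 0, against 8894 of all 16557, and 18 were lower at an unadjusted p of 0.05, against 11.8% of all genes. In that setting the medians were -0.75 for the members up to 2000 bp and -0.34 for the longer ones. DESeq2 called 8 of the 40 and 658 genes in all, where it called 1346 with the trend left in. The 8 were without Gapdh (DESeq2 adjusted p = 0.0667), Bnip3 (DESeq2 adjusted p = 0.0799) and Pdk3 (no adjusted p). Among long members, Pdk1 (5185 bp) had a log2 fold change of -1.06 in this setting and Bnip3l (3237 bp) had -0.90.

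**Figure D4:**
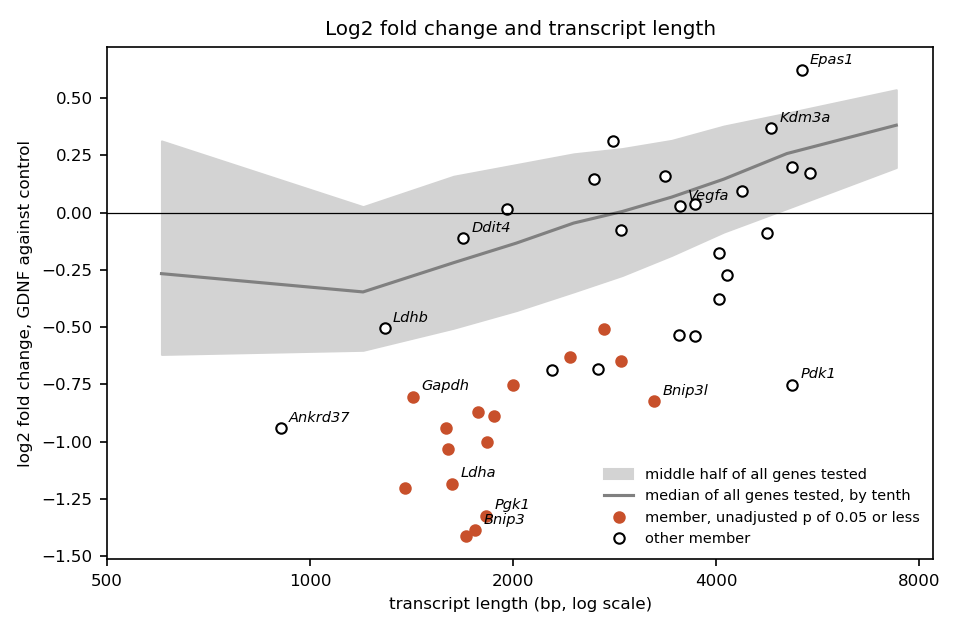
Log2 fold change (y axis, GDNF against control) against transcript length (x axis, bp, log scale). The grey line is the median of all genes tested in 10 length bins and the band their interquartile range, filled points are the 16 members with an unadjusted edgeR p under 0.05 and open points the other 24, and 33 of the 40 points lie below the median of the genes of their length bin.

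Ratios within a culture do not depend on the scaling between cultures, and none of 8 pairs passed the test between groups. The difference of mean log2 TPM ratio, GDNF minus control, was -0.70 for Ldha to Ldhb (means 1.49 ± 0.80 and 2.19 ± 0.60, SD, n = 4 each; exact permutation test, two-sided, p = 0.200). Pfkp to Pfkl came nearest, with a difference of 0.35 (means -1.46 ± 0.20 and -1.81 ± 0.21, exact permutation p = 0.0571). Adjusted over the 8 pairs, the smallest exact permutation p was 0.267. The smallest p that 4 against 4 allows is 0.0286. For Eno2 to Eno1 the difference was 1.13 (exact permutation p = 0.143), and for Epas1 to Hif1a it was 0.72 (exact permutation p = 0.143). Hk2 to Hk1 gave 0.40 (exact permutation p = 0.114), and Aldoa to Aldoc gave 0.42 (exact permutation p = 0.429). Bnip3 to Bnip3l gave -0.70 (exact permutation p = 0.171), and Pdk1 to Pdk3 gave -0.09 (exact permutation p = 0.771). A p above the threshold does not show that the ratios were alike.

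**Figure D5:**
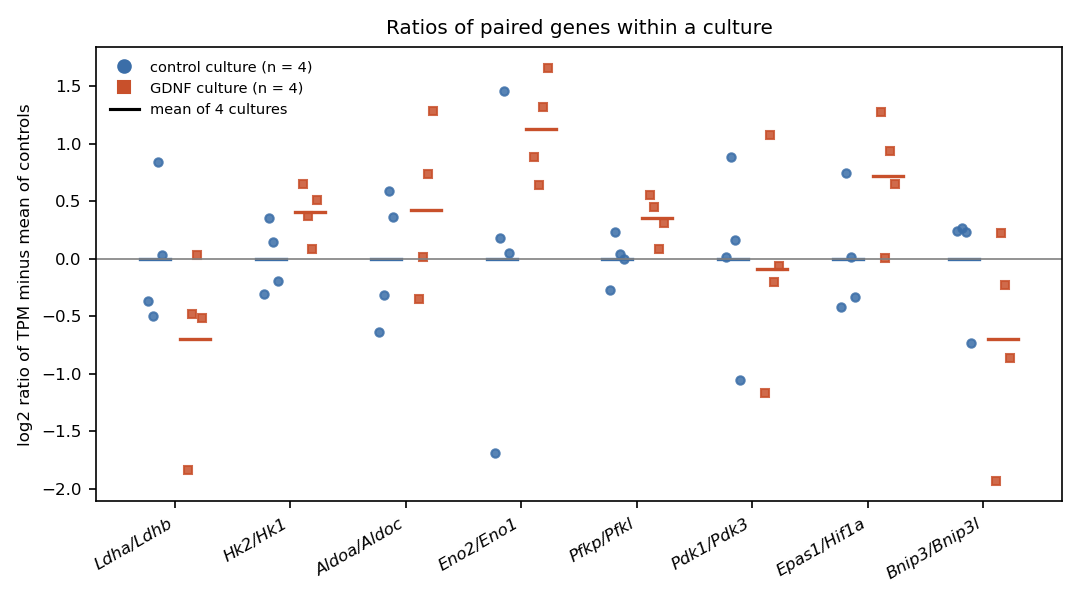
Log2 ratio of TPM of 8 pairs of related genes in each culture, minus the mean of the controls (y axis), by pair (x axis). Circles are control cultures, squares GDNF cultures and lines the means of 4, and for every pair at least 1 GDNF culture lies within the range of the controls.

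Other genes of the same pathways were taken from 5 lists, on which edgeR called 0 genes at an adjusted p of 0.05. Of 13 tested other isozymes of glycolysis, 1 was lower and 1 higher at an unadjusted edgeR p of 0.05, against 12.9% and 9.25% of all genes. DESeq2 called 1 lower and 1 higher of the 5 with an adjusted p, against 12.4% and 2.3% of all genes with one. The lower one was Eno1b, which shares its reads with Eno1, and the higher one was Pfkfb2, the heart form of the fructose 2,6-bisphosphate enzyme, at 30.04 ± 5.05 CPM in the controls and 45.5 ± 4.55 CPM after GDNF (log2 fold change 0.60, SE 0.16, DESeq2 adjusted p = 0.0299). The estimate for Pfkfb2 was 0.25 after removal of the length trend. Of 11 genes of the pyruvate dehydrogenase complex, its regulators and the mitochondrial pyruvate carrier, DESeq2 gave an adjusted p to 8. It called 1 lower, against 12.4% of all genes with an adjusted p. This was the carrier subunit Mpc1 (log2 fold change -0.59, SE 0.18, DESeq2 adjusted p = 0.0301). The estimate for Mpc1 was -0.28 after removal of the length trend (DESeq2 adjusted p = 0.201). At an unadjusted edgeR p of 0.05, 2 of the 11 were lower and 0 higher, against 12.9% and 9.25% of all genes.

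Of 11 other components of the HIF pathway, 4 were lower and 4 higher at an unadjusted edgeR p of 0.05, against 12.9% and 9.25% of all genes. DESeq2, which gave an adjusted p to 9 of the 11, called the lower 4, against 12.4% of all genes with one. These 4 are the cullin, RING and elongin partners of VHL in its ubiquitin ligase. Their log2 fold changes were -0.42 for Cul2 (SE 0.13), -0.77 for Rbx1 (SE 0.20), -0.65 for Tceb1 (SE 0.18) and -0.70 for Tceb2 (SE 0.20), with DESeq2 adjusted p from 0.0211 to 0.0330. After removal of the length trend the estimates were -0.60 for Cul2, -0.60 for Rbx1, -0.34 for Tceb1 and -0.39 for Tceb2. In that setting DESeq2 called Cul2 and Rbx1, but not Tceb1 (DESeq2 adjusted p = 0.142) or Tceb2 (DESeq2 adjusted p = 0.0554). Of 34 tested other HIF targets, 5 were lower and 1 higher at an unadjusted edgeR p of 0.05, and DESeq2 called 3 of the 27 with an adjusted p. The share lower at that p was 14.7%, against 12.9% of all genes, and the 2 that DESeq2 called lower were a smaller share of the 27 than the 12.4% over all genes. The mitochondrial protein Fam162a (log2 fold change -1.20, SE 0.37, DESeq2 adjusted p = 0.0233) and the cytokine Mif (log2 fold change -1.10, SE 0.29, DESeq2 adjusted p = 0.0184) were lower, and Wsb1, a substrate receptor of a ubiquitin ligase, was higher (log2 fold change 0.65, SE 0.20, DESeq2 adjusted p = 0.0359). After removal of the length trend DESeq2 still called Mif and Wsb1, but not Fam162a (log2 fold change -0.83, DESeq2 adjusted p = 0.0669). The median of this list was -0.12. Of 4 tested gluconeogenesis genes, 0 were called by either tool and 0 had an unadjusted edgeR p under 0.05, the smallest p being that of the pyruvate carboxylase gene Pcx.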

How the data were processed

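RNA of each culture was made into SMART-Seq v4 libraries with poly-A selection and sequenced as paired reads over 2 flow cell lanes, and the lane of each culture is not given in the sources used here. Per the submitters' processing notes, STAR and featureCounts were used on mm10 (GRCm38). The authors deposited, for each culture, a raw count, an FPKM value and a TPM value per RefSeq transcript, FPKM being the count scaled to transcript length and to the culture's summed counts and TPM its rescaling to the same total in every culture. Versions and the handling of strand and shared reads are not given in the sources used here.

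Counts of 33068 transcripts were summed per symbol to 24063 genes. TPM, taken from the most abundant transcript of each gene, served for levels and ratios, and FPKM was not used further. Groups came from the treatment labels. The main test was edgeR 4.0.16 (filterByExpr, TMM, quasi-likelihood, no covariates, Benjamini-Hochberg over 16557 genes, adjusted p of 0.05, R 4.3.3), with a biological coefficient of variation of 36.8%. Alternatives were DESeq2 1.42.0, the tool the study used, limma 3.58.1 (voom with quality weights), upper-quartile and library-size scaling, other filters, 1 transcript per gene, the kind of culture as a covariate, a robust fit, removal of a spline trend with transcript length (5 degrees of freedom) and leaving out each culture. DESeq2 without single cultures or with the length trend, and overlap in TPM, were added after the data were seen. The fits were tested on simulated data. Ratios were compared by exact permutation over 70 assignments.

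The 40 genes, their role groups, the 5 pathway lists and the 7 marker lists were chosen with earlier results of these data known. Values in every culture are given for genes with an unadjusted edgeR p or a DESeq2 adjusted p of at most 0.05, genes whose groups do not overlap, the most abundant gene of each role group and the genes of the ratios. On the pathway lists, genes are named at a DESeq2 adjusted p of at most 0.05 (up to the 5 smallest p), otherwise the smallest p. Standard errors are on the log2 scale, and counting error is small beside the spread between cultures at this depth.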

Additional observations from a re-analysis of the deposited data

Results flagged for a closer look

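Of 96 groups of 4 values examined (the 40 genes in CPM and the 8 log2 ratios, in each group), 9 held a culture far from the other 3 by Dixon's gap test, where chance gives about 5.

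Control culture 3 was far above the other controls for Aldoc (22.7 CPM, others 5.998 to 8.39), Pfkl (247 CPM, others 156 to 165) and Pgam1 (227 CPM, others 119 to 136). This is also the culture with the lowest TMM factor and the highest share of counts in short transcripts. Control culture 14 was far below the others for Hk2 (50.4 CPM, others 74.0 to 77.1) and far above them for Car12 (6.99 CPM, others 3.39 to 3.77).

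GDNF culture 12 was far above the other GDNF cultures for Egln3 (71.1 CPM, others 21.9 to 26.5), Ankrd37 (53.8 CPM, others 15.3 to 19.0) and Car12 (5.73 CPM, others 3.95 to 4.22). Egln3 and Ankrd37 are both known HIF targets, and this culture was the highest GDNF culture for 32 of the 40 genes. Control culture 21 was far below the other controls for the log2 ratio of Bnip3 to Bnip3l (0.88, others 1.85 to 1.88).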

How the results depend on the processing

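No paired analysis was possible because the control and GDNF cultures share no culture numbers. Under DESeq2 11 of the 40 genes were called in place of 0, and 2, 1, 4 and 3 genes were called on the lists of other isozymes, pyruvate dehydrogenase, HIF components and other HIF targets. Other edgeR settings and limma called 0 of the 40. The count higher at an unadjusted p of 0.05 was 1 with upper-quartile scaling, 1 with library size only and 1 when a mean of 5 CPM was required, and 0 to 2 without single cultures, while the count lower was 11 to 24. The DESeq2 count was 0 to 14 without single cultures. Genes lower without overlap numbered 3 with library size only (2.1% of all genes), 1 in TPM (0.61%) and 9 to 16 without single cultures, and genes higher 1 (14.5%), 2 (20.6%) and 0 to 1. Leaving out a culture makes non-overlap easier for any gene, since 3 against 4 leaves 35 assignments in place of 70. The shares of all genes in those fits are not given here, so the counts without single cultures cannot be read as particular to these genes. Without single cultures the difference for Eno2 to Eno1 was 0.56 to 1.61, the latter without control 14 (exact permutation p = 0.0286), for Pdk1 to Pdk3 -0.48 to 0.27, for Ldha to Ldhb -0.95 (without GDNF 17) to -0.32 (without GDNF 6), and for Bnip3 to Bnip3l -1.01 (without GDNF 12) to -0.29 (without GDNF 6).

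Of 50 genes recomputed, 39 kept their sign throughout. Without the length trend the log2 fold change was -0.11 for Arnt, -0.10 for Car12, 0.032 for Ddit4, -0.11 for Hk2, -0.088 for Pfkfb3 and -0.11 for Vegfa. With library size only it was 0.11 for Ddit4, 0.12 for Hif1a, 0.18 for Ndrg1 and 0.050 for Pfkp. Ndrg1 had 0.080 under limma. The log2 fold change of Car9 was -0.0032 under DESeq2, -0.0034 with DESeq2 size factors, -0.041 under limma and -0.038 with the kind of culture as a covariate. Without single cultures the ranges were -0.013 to 0.27 for Arnt, -0.10 to 0.36 for Car12, -0.19 to 0.18 for Car9, -0.33 to 0.0086 for Ddit4, -0.11 to 0.58 for Eno2, -0.20 to 0.022 for Hif1a, -0.23 to 0.20 for Ndrg1, -0.16 to 0.38 for Pfkfb3 and -0.23 to 0.53 for Vegfa. The cause of these changes was not tested. All 40 genes passed the filter on low counts, but DESeq2 gave no adjusted p to 6 of them (Aldoc, Pfkfb4, Epas1, Adm, Car9 and Car12). Aldoc and Adm, with an unadjusted DESeq2 p of 0.0024 and 0.0019, could therefore not be called by it. The part of depth in this was not tested. The smallest exact p that 3 cultures against 4 can give is 0.0286.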
